A study of Homo sapiens with 3 samples.

Results

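The subject is a set of 10 genes for cytokines and chemokines that epithelial cells secrete, IL1A, IL1B, IL6, CXCL8, CXCL1, CXCL2, CXCL3, CCL20, LIF and IL11, on arrays of the human lung adenocarcinoma line NCI-H1650. They were chosen by gene symbol, and all 10 of them were found among the 19775 genes with a probe set of their own, with 16 single-gene probe sets of the 54675 on the array. No probe set naming several genes held one of them. The groups were cells exposed to 40 μM colossolactone H, a triterpenoid of the fungus Ganoderma colossum, for 12 h, cells exposed to the same dose for 24 h, and control cells. Each group held 1 array of total RNA, so no spread between replicates, standard error or p-value can be given, and every difference describes these arrays only. The treated cultures began as 1000000 cells in a 10 cm dish, and all cells were of 1 established line grown in serum. The labels give neither the vehicle nor the collection time of the control.

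These secreted proteins carry alarm and growth signals between cells. IL-1α and IL-1β act on a shared receptor that switches on the transcription factor NF-κB. Many epithelial cells answer with chemokines that draw neutrophils through the receptor CXCR2, and with CCL20, which draws cells that carry CCR6. IL-6, LIF and IL-11 form a family whose receptors share the signalling chain gp130, encoded by IL6ST, and pass the signal on through JAK kinases to STAT3. Lung tumour cells are known to make several of these factors without outside stimulation.

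Values are MAS5 signal in arbitrary units, and a gene took its brightest single-gene probe set. Signal under 61.4, the 50th percentile of all values, was set to that floor before any difference was taken. Signals of different probe sets do not rank transcript amounts, since probe sets bind with different strength. The signal of a probe set exceeded the floor in 27227 cases at 12 h, 27388 at 24 h and 27366 in the control, and median signals were 60.6, 61.8 and 61.7. RNA integrity was read from ACTB, whose 3' probe set exceeded its 5' probe set 5.38-fold at 12 h and 6.55-fold at 24 h, against 4.95-fold in the control. For GAPDH the same ratio was 1.25 and 1.24 in treated cells, against 1.21 in the control. The part of this in the results was not tested. The epithelial markers EPCAM, CDH1 and KRT18 were bright, with EPCAM at 13754 and 13538 in treated cells, against 13033 in the control. The leukocyte markers PTPRC, CD3E and CD14 were at or under the floor on every array. Of 14 leukocyte markers 11 were on the array and 4 were measured. CSF1R, a macrophage receptor, was above the floor throughout, at 186.3 and 179.5 in treated cells, against 198.4 in the control. ITGAM, an integrin of myeloid cells, exceeded the floor in the control alone (73.7). The brightest probe set of HBB, a haemoglobin chain, exceeded it at 12 h alone (90.6), and another HBB probe set in the control alone (66.2). The 11 summed to 3614 at 12 h and 2882 at 24 h, against 4962 in the control, mostly through S100A8, which tumour epithelium can also express, at 3177 and 2392, against 4522. Of 14 fibroblast and endothelial markers 6 were measured, and all 14 summed to 2183 at 12 h and 1764 at 24 h, against 2562 in the control. By the brightest probe set of each gene, all 6 measured markers lay below the control at both times, with medians of -0.25 and -0.57. At 24 h 2 of them were 1.5-fold lower, against 4.92% of all measured genes. COL3A1 and COL1A1, fibrillar collagens, were at -0.43 and -0.58 and at -0.08 and -0.56. Dimmer COL1A1 probe sets did not all go this way, one being at 0.87 and 0.50 as bounds. Another COL1A1 probe set was at 0.13 and -0.22. FAP, a fibroblast protease, was at -0.14 and -0.41, and PECAM1, an endothelial adhesion protein, at -0.48 and -0.62. ACTA2, smooth muscle actin, was at -0.24 and at -0.68 as a bound. The part of either list in the results was not tested. RNA of whole cultures cannot tell fewer producing cells from less RNA per cell.

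None of the 10 genes differed 2-fold in any comparison. IL6 was bright and differed little, IL1A and CXCL2 lay above the control at both times by less than 2-fold, and LIF and IL11 lay below the control at 12 h and above it at 24 h. IL6 and CXCL8 had the same signs, with a 12 h difference of -0.05 each. Among all 12351 measured genes 2-fold differences were found for 0.883% at 12 h against control, 1.23% at 24 h against control and 0.324% at 24 h against 12 h, so a count of 0 among 10 genes is near that background. All 10 genes were measured, that is, above the floor on at least 1 array. IL1B and CXCL3 passed only through the 12 h array, and the other 8 genes were above the floor on all 3.

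**Figure D1:**
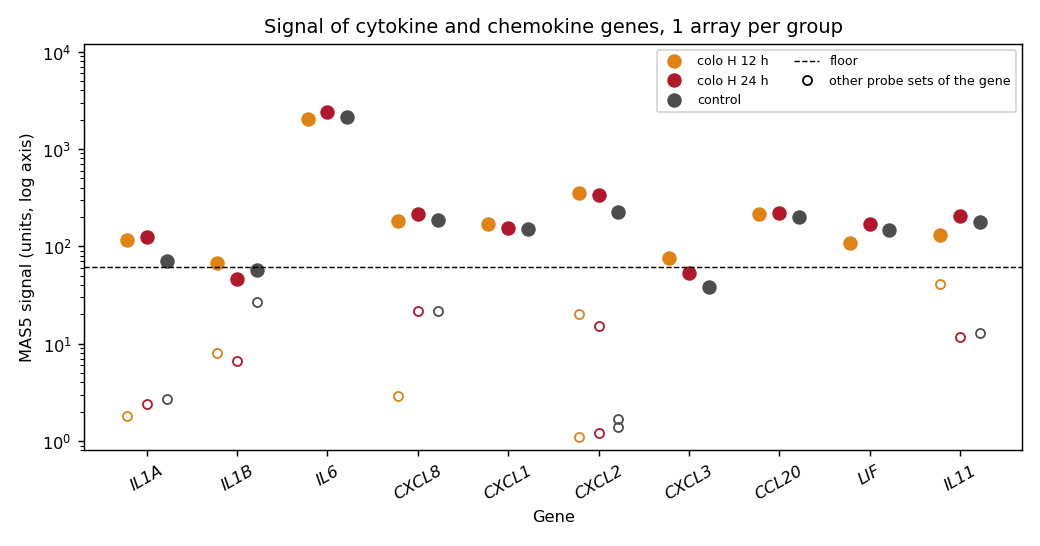
MAS5 signal (log axis) of each gene on the 12 h, 24 h and control arrays, 1 array per group. Filled circles show the brightest probe set of the gene, open circles its other single-gene probe sets, and the dashed line the floor of 61.4. IL6 is the only gene above 2000, IL1B and CXCL3 straddle the floor, and every open circle lies under it.

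IL1A encodes IL-1α, an alarm cytokine that is active as its precursor and is released by damaged epithelium. Its signal was 114.9 at 12 h and 126 at 24 h, against 70.7 in the control. Both treated arrays were thus higher than the control, and the control value lay close to the floor. The fold was 1.63 at 12 h and 1.78 at 24 h, and the log2 differences were 0.70 and 0.83. Of all measured genes 1.86% were at least as far above the control at 12 h and 1.25% at 24 h. Dim genes spread widely on these arrays. Among 1108 genes with a mean signal between 61.4 and 150, the central 95% of log2 differences reached 0.86 at 12 h and 0.84 at 24 h, which just takes in IL1A. Its other probe set, which ends in _s_at and may match several transcripts of the gene or family, read 1.8 and 2.4 in treated cells, against 2.7 in the control, and gave no information above the floor.

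IL1B encodes IL-1β, which needs cleavage by caspase-1 before release. It read 67.6 at 12 h and 46.2 at 24 h, against 56.9 in the control. Only the 12 h value exceeded the floor, so its difference of 0.14 at 12 h is a bound, and no difference can be given at 24 h. The other IL1B probe set read 8.1 and 6.7 in treated cells, against 26.9 in the control, all under the floor. IL1A and IL1B are adjacent coding genes on chromosome 2 in the RefSeq annotation.

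The genes that surround IL-1 processing, a list of 8, had 5 measured members and none 2-fold apart. CASP1, the caspase that cleaves IL-1β, read 148 at 12 h and 113.1 at 24 h, against 212.7 in the control, differences of -0.52 and -0.91. A second CASP1 probe set was at -0.75 and -0.17, so the probe sets placed the lower value at different times. CASP4, a caspase that senses bacterial lipid, was at 0.25 and 0.43, and CAPN2, a calpain subunit, at -0.32 and -0.36. CAPN1, another calpain, was at 0.27 and 0.25, but its other probe set went the other way, at -0.32 and -0.14. NLRP3, NLRP1 and PYCARD, parts of inflammasomes, did not exceed the floor on any array.

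IL6 encodes IL-6, a cytokine of the acute phase and of tumour growth. It read 2056 at 12 h and 2396 at 24 h, against 2124 in the control, and lay above the 91st percentile of signals on each array. The 3 values lie within a narrow range, with the 24 h array highest. The log2 difference was -0.05 at 12 h and 0.17 at 24 h, and 0.22 for 24 h against 12 h. Among the 7511 genes with a mean signal above 500, the robust SD of differences was 0.22 at 12 h, 0.26 at 24 h and 0.15 for 24 h against 12 h. IL6 thus lay within 1 robust SD of no difference from the control at both times, and outside it, though inside the central 95% (up to 0.33), for 24 h against 12 h. It has 1 probe set, which is transcript-specific by its name.

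LIF encodes leukaemia inhibitory factor, and IL11 encodes IL-11, both IL-6 family members that tumour cells can secrete. LIF read 109.5 at 12 h and 169.9 at 24 h, against 146.4 in the control. IL11 read 132.4 at 12 h and 204.5 at 24 h, against 177.4 in the control. For both genes the 12 h array was the lowest and the 24 h array the highest, an order that IL6 and CXCL8 shared. The log2 differences from the control were -0.42 for LIF at 12 h, turning to 0.21 at 24 h. IL11 gave the same rounded values of -0.42 and 0.21. Both comparisons share the control array, and with 1 array at each time the change of sign was not tested. For 24 h against 12 h, which does not involve the control, LIF was at 0.63 and IL11 at 0.63, or 1.55-fold and 1.54-fold. Only 1.23% and 1.25% of measured genes were as far or farther above in that comparison. The central 95% reached 0.69 for genes up to a mean signal of 150, where LIF lies, and 0.59 for the 2689 genes between 150 and 500, where IL11 lies. LIF thus lay inside its range and IL11 just beyond its own, with a mean signal near the lower edge of that group. A second IL11 probe set read 41.4 and 11.6 in treated cells, against 13 in the control, under the floor throughout and in the other direction at 12 h.

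**Figure D2:**
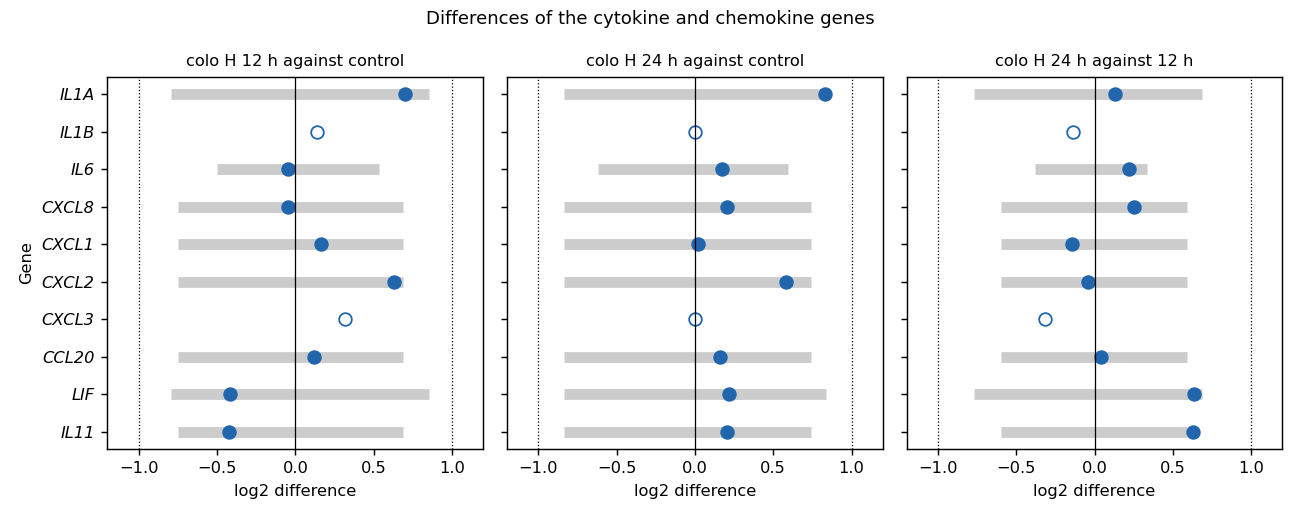
Log2 difference of each gene in the 3 comparisons. Filled circles are genes above the floor on all 3 arrays, open circles genes at the floor on at least 1 array, grey bars the central 95% of all genes of like mean signal, and dotted lines 2-fold. No gene reaches 2-fold, and IL1A lies at the edge of its bar at 24 h (0.83). For 24 h against 12 h LIF and IL11 lie at 0.63, LIF inside its bar and IL11 just beyond its own.

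The neutrophil chemokines lie close together on chromosome 4. In RefSeq order 2 coding genes stand between CXCL8 and CXCL1 and 3 between CXCL1 and CXCL3, while CXCL3 and CXCL2 are adjacent. The 200 bases before the annotated starts of CXCL1, CXCL2 and CXCL3 are shown because these paralogs share most of this sequence and each carries an NF-κB match. Capitals mark matches to the NF-κB letters (GGGNN followed by TTTCC) and to the C/EBP letters TTGCNNAA, read 5′ to 3′ on the strand of the gene from RefSeq, GRCh38.p14.
CXCL1, chr4:73869193-73869392, plus strand: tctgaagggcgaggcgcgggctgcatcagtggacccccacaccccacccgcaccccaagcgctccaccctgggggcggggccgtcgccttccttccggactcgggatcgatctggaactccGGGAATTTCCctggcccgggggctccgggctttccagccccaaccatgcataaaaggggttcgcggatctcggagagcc
CXCL2, chr4:74099196-74099395, minus strand: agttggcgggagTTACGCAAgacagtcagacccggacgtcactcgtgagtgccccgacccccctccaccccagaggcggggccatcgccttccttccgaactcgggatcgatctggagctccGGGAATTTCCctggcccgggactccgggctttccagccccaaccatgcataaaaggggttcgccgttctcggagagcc
CXCL3, chr4:74038690-74038889, minus strand: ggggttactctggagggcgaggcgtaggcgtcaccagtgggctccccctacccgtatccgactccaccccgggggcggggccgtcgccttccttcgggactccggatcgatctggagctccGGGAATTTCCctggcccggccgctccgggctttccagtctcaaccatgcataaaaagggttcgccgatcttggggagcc

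In a global alignment of these 200 bases CXCL1 and CXCL3 were identical at 168, CXCL2 and CXCL3 at 160, and CXCL1 and CXCL2 at 154. The longest unbroken shared run was 42 bases for CXCL1 and CXCL2. The NF-κB letters began 79 bases before the start in CXCL1 and CXCL3 and 78 before it in CXCL2. The C/EBP match, 188 bases before the start on the opposite strand, was found in CXCL2 and not in the windows of CXCL1 and CXCL3.

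CXCL2 encodes the chemokine GROβ. It read 349.3 at 12 h and 339 at 24 h, against 226.1 in the control. Both treated arrays were higher, by 1.54-fold at 12 h and slightly less at 24 h, log2 differences of 0.63 and 0.58. Of all measured genes 2.83% were as far or farther above the control at 12 h and 4.12% at 24 h. For genes with a mean signal between 150 and 500 the central 95% reached 0.69 and 0.74, which takes in both values. This signal came from a probe set ending in _x_at, whose probes may also bind other transcripts of the family. The transcript-specific probe sets of CXCL2 were under the floor, one at 20.2 and 15.2 in treated cells, against 1.7 in the control, and the other at 1.1 and 1.2, against 1.4. How much of the CXCL2 signal came from paralogs was not tested.

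CXCL1, the chemokine GROα, read 170.6 at 12 h and 154.7 at 24 h, against 152.6 in the control. The differences were 0.16 and 0.02, both smaller than 1 robust SD of genes of this signal (0.33 at 12 h and 0.36 at 24 h), and the 24 h value turned to -0.00 with quantile normalization. CXCL3, the chemokine GROγ, read 76.5 at 12 h and 52.8 at 24 h, against 38.4 in the control. The control and 24 h values lay under the floor, so at 12 h the gene was at least 1.25-fold higher, and no difference can be given at 24 h. Without a floor the deposited signals gave ratios of 1.99 and 1.38, from values at which probe sets cannot be told from background. The 3 paralogs each had their highest value at 12 h. CXCL3 counted as measured only through that array, and the CXCL2 probe set may bind paralogs, so these are not 3 separate observations.

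CXCL8, the neutrophil attractant IL-8, and CCL20, the ligand of CCR6, differed little. CXCL8 read 181.2 at 12 h and 216 at 24 h, against 187.1 in the control, differences of -0.05 and 0.21. CCL20 read 216.3 at 12 h and 222.8 at 24 h, against 199 in the control, differences of 0.12 and 0.16. For neither gene did a difference from the control exceed 1 robust SD of genes of like signal. The CXCL8 value also came from an _x_at probe set, and its other probe set read 2.9 and 21.8 in treated cells, against 21.5 in the control, under the floor.

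Promoter windows reaching from 250 bases before to 50 bases after the start were matched by symbol for 9 of the 10 genes, and LIF was not matched. The NF-κB letters, GGGNN followed by TTTCC and searched on both strands, were found for CCL20, CXCL1, CXCL2, CXCL3 and IL6, 5 of 9 genes. By windows this was 5 of 10, against 1.91% of 35116 windows in the table. CXCL1, CXCL2 and CXCL3 share most of this sequence, so their matches are not 3 separate observations. The AP-1 letters TGANTCA were found for CXCL8, IL11 and IL1A, against 7.71% of windows, and the C/EBP letters TTGCNNAA for CXCL2, IL1B and IL6, against 10.5%. A relaxed NF-κB form, without the first G, was added after the matches were seen and overlaps the first motif. It was also found in CXCL8, 91 bases before the start, against 6.26% of all windows. These are matches of letters and not measured binding. The 200 bases before the start of IL6, CXCL8 and IL11 are shown because IL6 carries both NF-κB and C/EBP matches, CXCL8 carries the relaxed form, and IL11 holds an AP-1 match. Capitals mark the NF-κB, AP-1 and C/EBP matches, in CXCL8 with the relaxed form.
IL6, chr7:22727000-22727199, plus strand: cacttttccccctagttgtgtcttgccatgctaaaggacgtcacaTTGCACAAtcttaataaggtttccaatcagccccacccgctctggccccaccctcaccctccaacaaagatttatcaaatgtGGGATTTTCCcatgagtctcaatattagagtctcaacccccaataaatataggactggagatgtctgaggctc
CXCL8, chr4:73740369-73740568, plus strand: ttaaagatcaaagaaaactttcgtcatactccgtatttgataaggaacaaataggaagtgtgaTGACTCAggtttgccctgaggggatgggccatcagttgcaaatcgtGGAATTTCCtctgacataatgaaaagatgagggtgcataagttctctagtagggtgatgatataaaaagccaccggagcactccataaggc
IL11, chr19:55370464-55370663, minus strand: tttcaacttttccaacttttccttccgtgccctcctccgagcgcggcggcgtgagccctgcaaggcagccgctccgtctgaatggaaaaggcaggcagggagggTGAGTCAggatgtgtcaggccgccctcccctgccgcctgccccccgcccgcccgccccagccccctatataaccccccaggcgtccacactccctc

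**Figure D3:**
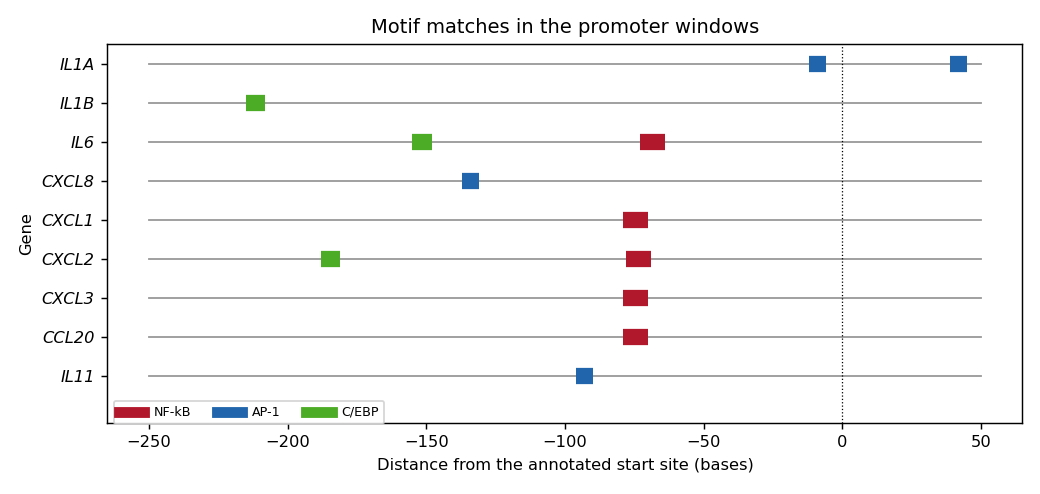
Positions of letter matches to 3 motifs in the promoter windows of 9 genes, as distance in bases from the annotated start site. The NF-κB matches of CXCL1, CXCL2, CXCL3, CCL20 and IL6 begin between 73 and 79 bases before the start, and IL11 and CXCL8 hold an AP-1 match only. IL1A is drawn from the first of its annotated starts.

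Beside these matches stood differences of unlike size. Of the 5 genes that hold the first NF-κB motif, CXCL2 was at 0.58 at 24 h, CCL20 and IL6 were at 0.16 and 0.17, CXCL1 was at 0.02, and CXCL3 could not be measured at that time. IL1A, at 0.83, holds no match to it in either of its windows. Any relation between the letter matches and these differences was not tested.

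Taken as a list, the 10 genes had a median log2 difference of 0.13 at 12 h, 0.19 at 24 h and 0.09 for 24 h against 12 h, beside medians over all measured genes of 0.00, 0 and -0.01. At 12 h 6 genes were above the control and 4 below. IL1B and CXCL3, measured only through the 12 h array, could only be above at 12 h and below for 24 h against 12 h. At 24 h 8 were above, none was below, and IL1B and CXCL3 were at the floor on both arrays. Over the 8 genes above the floor on all arrays the medians were 0.04 at 12 h and 0.21 at 24 h, with 4 of 8 and 8 of 8 genes above the control. For 24 h against 12 h their median was 0.18. Among all genes above the floor on all arrays, 5634 were above the control at 24 h and 5670 below. These differences all share 1 control array, and whether the 10 genes differ from the others in direction was not tested. With quantile normalization 7 of the 10 were above and 1 below at 24 h. With the floor at the 25th percentile, or with no floor, 9 were above and 1 below. The median over probe sets lowered the 24 h median to 0.10. With a threshold of 1.5-fold, chosen after the values were seen, IL1A and CXCL2 were higher at 12 h, where 3.41% of all measured genes were, and IL1A was higher at 24 h, where 4.09% were. LIF and IL11 passed it for 24 h against 12 h, where 1.46% of genes were that far above. None of the 10 genes was 1.5-fold lower, where 3.11% of all genes were at 12 h, 4.92% at 24 h and 1.93% for 24 h against 12 h.

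**Figure D4:**
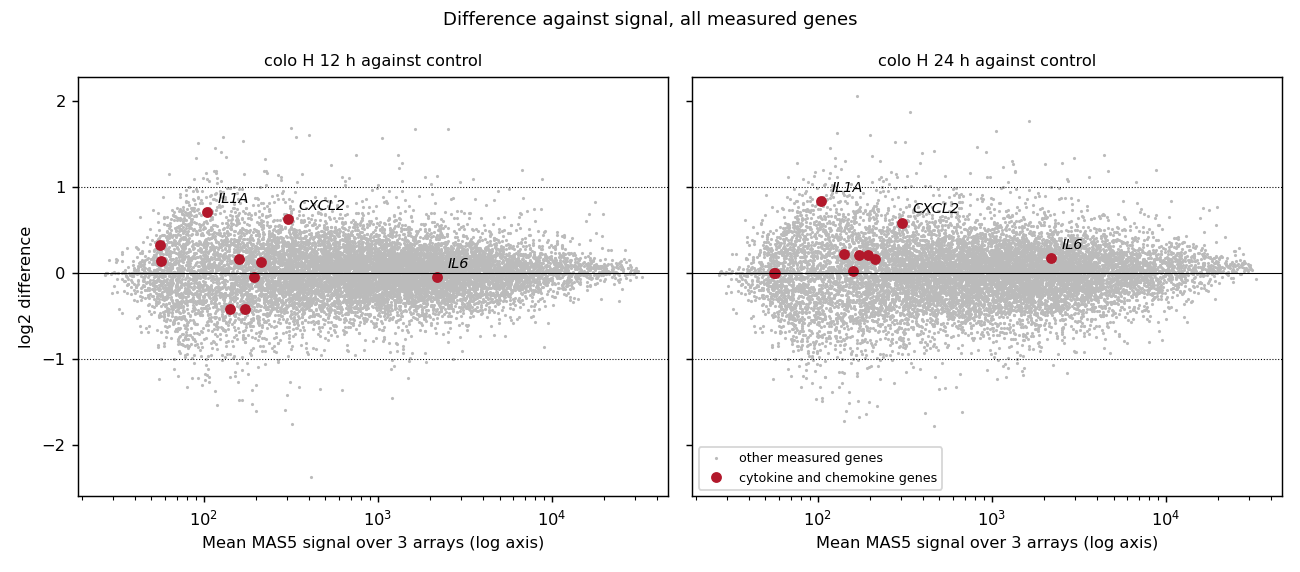
Log2 difference against mean MAS5 signal (log axis) for 12351 measured genes at 12 h and at 24 h, with the 10 genes in red. Dotted lines mark 2-fold. The spread of all genes widens at low signal, where 9 of the 10 genes lie, and IL6 lies in the narrow bright part.

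Receptors of the IL-6 family were above the floor on all 3 arrays, LIFR being the dimmest of them. Of 13 receptor and antagonist genes 7 were measured and none was 2-fold apart, the median being 0.11 at 12 h and 0.06 at 24 h. IL6ST, the shared chain gp130, read 5838 at 12 h and 5401 at 24 h, against 5442 in the control, differences of 0.10 and -0.01. Dimmer IL6ST probe sets above the floor on at least 1 array went different ways at 24 h, one being at 0.19 and one, as a bound, at -0.07. Of the other two, one read 294.3 and 462.1 in treated cells, against 245.1 in the control, and another 169.5 and 311.9, against 124.9, differences of 0.91 and 1.32 at 24 h, both from probe sets ending in _s_at. LIFR, the LIF receptor, read 207.5 at 12 h and 238.7 at 24 h, against 153.3 in the control, differences of 0.44 and 0.64. Of the other LIFR probe sets above the floor, a pair was also above the control at both times and 1 was below it, at -0.17 and -0.31. OSMR, the oncostatin M receptor, was at 0.32 and 0.23, and IL6R, the IL-6 receptor, at 0.11 and 0.17. IL1RAP, the accessory chain of the IL-1 receptor, was at 0.12 and 0.06, and its other probe set at 0.45 and -0.29. IL1RN, the IL-1 receptor antagonist, and CXCR1, CXCR2 and CCR6 did not exceed the floor.

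All 22 genes of the NF-κB list on the array were measured, and none was 2-fold apart. At 12 h and again at 24 h 7 were above and 15 below the control, with medians of -0.08 and -0.06. Among all 12351 measured genes 5977 were below the control at 12 h and 6166 at 24 h. Whether the list differs from the other genes was not tested. NFKBIA, an inhibitor that NF-κB itself induces, stood at 0.05 and 0.19, and RELA, the p65 subunit, at -0.05 and 0.09. TNFAIP3, a feedback inhibitor also induced by NF-κB, read 210.6 and 199.1 in treated cells, against 277.9 in the control, differences of -0.40 and -0.48. REL, another subunit, was at -0.13 and -0.57, with its other probe sets above the floor also below the control at both times. IKBKG, the kinase regulator NEMO, was at -0.55 and -0.37, and NFKBIB, an inhibitor, at -0.46 and -0.52, though another NFKBIB probe set was at 0.25 and 0.02. The remaining NFKBIB probe set was at -0.99 as a bound at 12 h and at 0.17 at 24 h.

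Genes of JAK and STAT3 signalling gave medians of -0.03 at 12 h and 0.02 at 24 h over 10 measured members, none of them 2-fold apart. STAT3 read 4161 and 3875 in treated cells, against 4693 in the control, differences of -0.17 and -0.28. SOCS3, a feedback inhibitor that STAT3 induces, read 397 and 390.1 in treated cells, against 511.6 in the control, differences of -0.37 and -0.39. SOCS1, a related inhibitor, was at -0.20 and -0.32, and TYK2, a kinase of the pathway, at 0.30 and 0.14. A list of AU-rich element binding factors and other mRNA decay factors had medians of -0.06 and -0.12, and none was 2-fold apart. At 24 h 9 of 10 were below the control, some by little, beside 6166 of all 12351 measured genes. That difference in share was not tested. ZFP36L2, a decay factor, read 1613 and 1447 in treated cells, against 2270 in the control, differences of -0.49 and -0.65. ELAVL1, the stabilising factor HuR, was at -0.24 and -0.19, HNRNPD, the decay factor AUF1, at -0.18 and -0.19, and ZFP36, tristetraprolin, at -0.24 and -0.03.

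Other secreted factors went both ways. Of 16 other chemokines 4 were measured. CCL5, an attractant of T cells, was bright at 7249 at 12 h and 6329 at 24 h, against 6001 in the control, differences of 0.27 and 0.08, and its other probe sets were at 0.39 and 0.22 at 12 h. CCL28, a mucosal chemokine, was at -0.28 and -0.37, CXCL16, a membrane-bound chemokine, at -0.17 and -0.43, and CXCL5, a neutrophil chemokine near the floor, at 0.33 and at 0.54 as bounds. Of 16 other cytokines 4 were measured. IL12A, the p35 subunit of IL-12, was the 1 gene 2-fold apart, at 68.8 at 12 h and 52.9 at 24 h, against 169.5 in the control. Its differences were -1.30 at 12 h and -1.46 at 24 h, the second a bound because it lay under the floor, from 1 probe set. IL18, a cytokine of epithelium, was at -0.21 and -0.45, CSF1, a macrophage growth factor, at 0.12 and 0.21, and IL15 at 0.16 and -0.25.

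**Figure D5:**
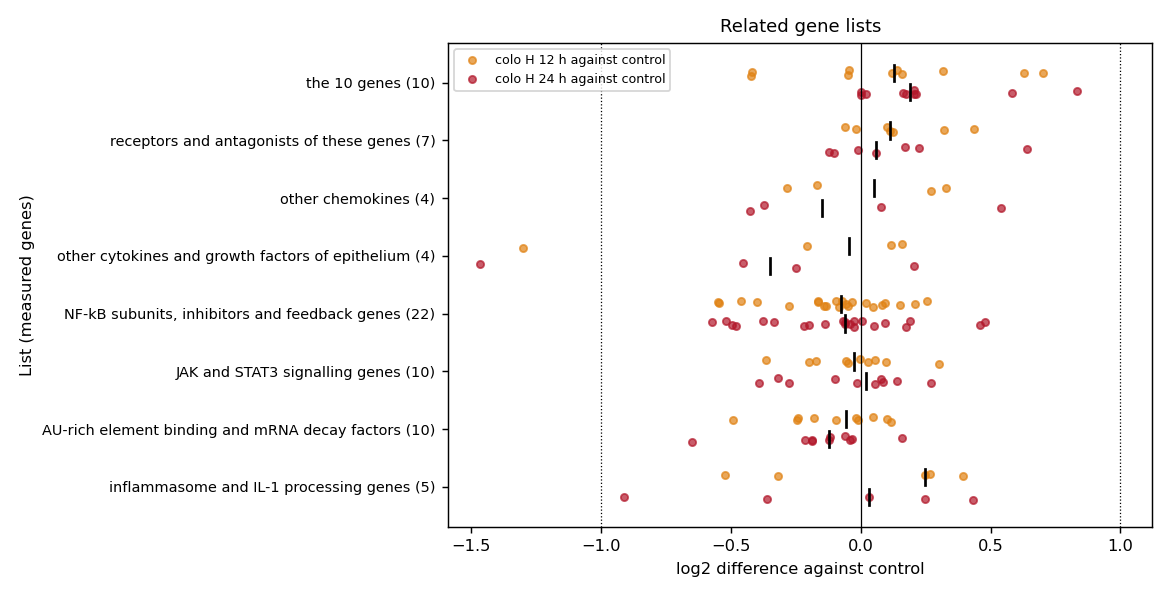
Log2 difference against control of the measured genes of the 10 genes and of the related lists at 12 h and at 24 h, marker lists left out, with medians as black bars and 2-fold as dotted lines. The number of measured genes stands beside each list name. Medians of the lists drawn lie between -0.35 and 0.25, and IL12A, under other cytokines, is the only gene drawn beyond 2-fold.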

How the data were processed

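Total RNA of 3 cultures was hybridised to Affymetrix arrays (HG-U133 Plus 2.0), 1 per group. The intensity values that the authors deposited are linear and come from MAS5, per the submitters' processing notes. Version and settings are not given in the sources used here. On every array the signal trimmed by 2% at each end averaged 500.1, and no further scaling was applied. The platform annotation gave 1 gene for 41097 probe sets, several for 1801 and none for 11777. A gene took its brightest single-gene probe set (19775 genes), signal under the 50th percentile was set to that floor, and 12351 genes above it on at least 1 array counted as measured. Differences are log2 of 1 array over another, and a robust SD is the scaled median absolute deviation over genes. There is no test, and the number of arrays limits precision. The steps were tested on simulated data with changes planted in bright genes only, so dim signal near the floor was not covered. Alternatives (8) covered scaling, floor and probe set rule. The 10 genes, the lists and the motifs were chosen with earlier results of these data known. All 10 genes were named, and from each other list the measured genes (up to 4) farthest from the control on average, any at 2-fold, and IL6ST, IL1RN, NFKBIA, TNFAIP3, RELA, STAT3, SOCS3 and ZFP36. For marker lists the 3 brightest also qualified. Genes named as below the floor, and PTPRC, CD3E and CD14, were picked after their values were seen. Software was Python 3.11.15, pandas 2.3.3, numpy 2.4.6 and limma 3.58.1 in R 4.3.3.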

Additional observations from a re-analysis of the deposited data

How the results depend on the processing

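No paired analysis was possible because each group held 1 array. None of the 10 genes reached 2-fold under any of the 8 other settings of scaling, floor and probe set. With a threshold of 1.5-fold, added after seeing the data, 2 genes passed at 12 h against control, 1 at 24 h against control and 2 at 24 h against 12 h. The count of all genes 2-fold apart depended on the floor. With the floor at the 25th percentile it was 1540, 1644 and 1493 in those 3 comparisons, with no floor and a pseudocount of 1 it was 375, 426 and 267, and with the floor at the 65th percentile 44, 63 and 6. That last floor left 5 of the 10 genes measured and gave them a median of 0 at 12 h. Of 219 values of single genes under these settings, 202 lay within 1 robust SD of the reported value. That SD, over all measured genes, was 0.26 at 12 h, 0.29 at 24 h and 0.18 for 24 h against 12 h. It exceeded many of the differences themselves. A lower floor or transcript-specific probe sets could not change genes already above the floor or already read from such probe sets. The count is thus no measure of how stable the small differences are. With the median over probe sets, CXCL2 was at 0 because its other probe sets were at the floor, and IL1A was at 0.35 and 0.42. With transcript-specific probe sets only, CXCL2 and CXCL8 were not measured. With the floor at the 65th percentile IL11 was at 0 at 12 h against control, no longer below it, and at 0.09 for 24 h against 12 h, where the median over probe sets gave 0.31. LIF kept its signs wherever it was measured. Dim signal limits 9 of the 10 genes.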

Other observations

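Epithelial markers, which the comparisons above used as a check of cell identity only, did not all go one way. CLDN4, a tight junction claudin, read 831 at 12 h and 887.8 at 24 h, against 514.8 in the control, differences of 0.69 and 0.79, while KRT19, a simple-epithelial keratin, read 1171 and 1120, against 1703, differences of -0.54 and -0.60. ELF3, an epithelial transcription factor, was at -0.16 and -0.26, and KRT7, another simple-epithelial keratin, at -0.19 and -0.24.

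IL6-AS1, a noncoding gene annotated beside IL6, had a probe set of its own that read 219.4 at 12 h and 245.9 at 24 h, against 290.7 in the control, so both treated arrays were lower while IL6 itself read 2056 and 2396, against 2124. This gene was picked after its values were seen. The probe set annotated to LIF-AS2, a noncoding gene beside LIF, stayed under the floor on every array.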
